A study of Mus musculus with 4 samples.

Results

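The 10 genes described here belong to the brain's chondroitin sulphate matrix and were measured in 4 mouse tumours. They comprise the lectican genes Bcan, Ncan, Acan and Vcan, the membrane proteoglycan genes Cspg4 and Cspg5, the receptor phosphatase gene Ptprz1, the tenascin genes Tnr and Tnc, and the link protein gene Hapln1. Genes were chosen by symbol, and all 10 were found, each as 1 row, among the 46946 genes of the deposited count table. All 4 tumours belong to 1 group, named PDGFB K27M. The labels describe untreated mouse tumours grown from neural stem cells with PDGF, of genotype K27M, an exchange of lysine in histone H3 that inhibits the methyltransferase complex PRC2. The series text instead speaks of injecting DIPG cells, from diffuse intrinsic pontine glioma, that carry mutant H3.3, and gene counts do not decide between the descriptions. Normal brain, cultured cells and other genotypes were not analysed here, so nothing below compares tumour with normal tissue. The labels state no strain, age, injection site or promoter behind the introduced genes, and each library is a whole tumour that can hold host brain.

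Lecticans are secreted core proteins that carry chondroitin sulphate chains. Their amino-terminal domain binds hyaluronan, a long sugar polymer, and link proteins (the Hapln family) lock that bond, while their carboxy-terminal lectin domain binds tenascins. The resulting mesh fills the space between brain cells and, in its densest form, wraps some neurons as perineuronal nets. Ptprz1 belongs to the same network, because its extracellular part carries chondroitin sulphate, is also released as the proteoglycan phosphacan, and binds tenascins and contactin 1. Oligodendrocyte precursors, the normal glia that many PDGF-driven gliomas resemble, make much of this matrix and are known for Cspg4, also called NG2.

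The libraries, T8, T10, T14 and TUN by their column names, held 21664889 to 24369339 read counts. Values below are CPM (counts scaled to library size with TMM factors) within a gene and RPKM (CPM per kilobase of merged exons) between genes. The markers of oligodendrocyte precursors, 10 of 10 at CPM 1 or more in every tumour, summed to 6808 CPM in T14 and 7787 in T10, with 11715 in T8 and 9405 in TUN. Single markers did not all follow that sum: of the 10, 6 were highest in T8, 3 in T10 and 1 in TUN. The 6 neural stem cell genes, a list added after values were seen, were also all detected, with Sox2 at 181 to 326 CPM. Neuron markers, 10 of 10 detected and none at 0, differed far more, and summed to 3262 CPM in T14 and 2421 in T10, against 265 in T8 and 164 in TUN. Astrocyte markers summed to 7549, 4829, 2255 and 2163 CPM and mature oligodendrocyte markers to 4061, 5386, 1207 and 1159 CPM, in the same order of tumours. In bulk tissue, fewer cells of a type and less RNA per cell cannot be told apart.

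The 10 genes lie on 8 chromosomes of mm10. Bcan spans 87987531 to 88000230 on chromosome 3 (minus strand), Ncan 70093085 to 70120873 on chromosome 8 (minus), Acan 79053483 to 79115099 on chromosome 7 (plus) and Vcan 89655312 to 89742509 on chromosome 13 (minus). Cspg4 (56865104 to 56899870, plus) and Cspg5 (110243783 to 110262576, plus) share chromosome 9. Ptprz1 spans 22875502 to 23052916 on chromosome 6 (plus). Tnr takes up 159523769 to 159931729 on chromosome 1 (plus), and Tnc 63959785 to 64047015 on chromosome 4 (minus). Hapln1 spans 89540636 to 89611832 on chromosome 13 (plus), beside Vcan. Only Tnr and Tnc share exon bases with another gene of the table. Tnr shares 443 bases with Gm38039, which had 0 counts in every library, and Tnc shares 176 bases with 8030451A03Rik, which had 2 to 6 counts.

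Promoter windows (250 bases before to 50 after the start, RefSeq, GRCm38.p6, the build also called mm10) matched 9 of the 10 genes, all except Cspg5. The windows of 4 genes are shown because they set CpG content apart from RNA level: Ptprz1 and Tnr were strongly expressed, and Acan and Hapln1 were the 2 lowest of the 10. Capitals mark CG dinucleotides, 5′ to 3′ on the strand of the gene. The windows are chr6:22875252-22875551 for Ptprz1, chr1:159523519-159523818 for Tnr, chr7:79052976-79053275 for Acan and chr13:89540386-89540685 for Hapln1, all on the plus strand.
Ptprz1: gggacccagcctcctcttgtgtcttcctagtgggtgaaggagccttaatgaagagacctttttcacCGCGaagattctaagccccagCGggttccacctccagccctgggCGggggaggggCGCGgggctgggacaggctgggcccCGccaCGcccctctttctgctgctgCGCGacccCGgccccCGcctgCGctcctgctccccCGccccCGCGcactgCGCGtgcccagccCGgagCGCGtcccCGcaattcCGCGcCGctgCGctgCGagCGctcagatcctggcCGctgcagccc
Tnr: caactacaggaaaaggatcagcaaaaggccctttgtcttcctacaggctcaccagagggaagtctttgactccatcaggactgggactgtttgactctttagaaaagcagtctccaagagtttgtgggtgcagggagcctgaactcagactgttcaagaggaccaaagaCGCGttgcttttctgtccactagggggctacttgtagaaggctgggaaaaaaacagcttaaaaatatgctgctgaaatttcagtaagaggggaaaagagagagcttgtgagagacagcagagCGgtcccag
Acan: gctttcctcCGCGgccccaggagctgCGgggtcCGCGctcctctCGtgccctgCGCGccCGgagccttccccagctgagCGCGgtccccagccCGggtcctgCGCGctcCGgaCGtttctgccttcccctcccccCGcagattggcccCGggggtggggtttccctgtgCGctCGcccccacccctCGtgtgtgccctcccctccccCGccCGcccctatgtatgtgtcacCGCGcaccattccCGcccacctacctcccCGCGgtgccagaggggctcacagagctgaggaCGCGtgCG
Hapln1: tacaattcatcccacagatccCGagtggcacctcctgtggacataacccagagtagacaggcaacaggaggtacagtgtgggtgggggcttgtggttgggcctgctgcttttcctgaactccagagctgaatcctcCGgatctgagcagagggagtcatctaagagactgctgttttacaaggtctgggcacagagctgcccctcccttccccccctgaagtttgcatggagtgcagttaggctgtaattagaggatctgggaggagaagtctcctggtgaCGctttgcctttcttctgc

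The Ptprz1 window held 29 CG dinucleotides and the Tnr window 3, while the Acan window held 31 and the Hapln1 window 3. The median of all 32851 windows was 7. The 4 were picked for this contrast and say nothing on how CG content and level go together. In the other windows the count was 24 for Bcan, 9 for Ncan, 12 for Vcan, 17 for Cspg4, and 10 and 16 for the 2 annotated starts of Tnc. The GC box GGGCGG, which itself contains a CG, and the other motifs were searched on both strands. GGGCGG occurred in the windows of Bcan, Ncan, Acan, Vcan, Cspg4, Ptprz1 and Tnc and in 35.7% of all windows. TATAAA occurred in the windows of Ncan and Tnc (13.6% of all windows), CAGCTG in those of Ncan and Acan (16.3%) and ACAAAG in that of Tnr (18.7%). The RefSeq start of Acan lies 257 bases and that of Bcan 126 bases from the start of the gene in the count table.

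Bcan, which encodes the brain-specific lectican brevican, was the highest lectican per kilobase of merged exons in every tumour, while by CPM, without length, Ncan was higher in every tumour. It stood at 141 RPKM in T14 and 163 in T10, with 191 in T8 and 188 in TUN (171 ± 23.7 RPKM, SD, n = 4). T14 was the lowest library and T8 and TUN were close to each other. Ncan (neurocan, a lectican of the developing central nervous system) followed at 103, 109, 170 and 139 RPKM in the same order, 130 ± 30.8 on average. Its highest library was T8, with 1.65 times the CPM of the lowest, T14.

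Vcan (versican, made by precursor glia and by many tissues outside the brain) was lower, at 31.9 RPKM in T14 and 44.1 in T10, with 25.3 in T8 and 37.1 in TUN. It was lowest in T8, where Ncan was highest. Acan (aggrecan, the lectican of cartilage and of perineuronal nets) was near the bottom of the detected genes. It had 117 counts in T14 and 510 in T10, with 233 in T8 and 198 in TUN, or 5.19, 20.8, 9.76 and 8.84 CPM, and averaged 1.49 ± 0.90 RPKM. T10 was the highest library and T14 the lowest, with a goodness-of-fit p of 0.164 in edgeR before adjustment, the test of spread between tumours described below. Of the summed lectican RPKM, Bcan made up 50.7% ± 0.999 (49.3% to 51.5% over the 4 tumours), Ncan 38.3% ± 4.06, Vcan 10.5% ± 3.06 and Acan 0.446% ± 0.286 (SD, n = 4).

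The membrane-bound members all stood above 70 RPKM in every tumour, like Bcan and Ncan. Ptprz1 was the highest of the 10 genes in all 4 tumours, at 152 RPKM in T14 and 184 in T10, with 200 in T8 and 197 in TUN (184 ± 21.9, SD, n = 4). By mean RPKM it ranked 144 among 13245 detected genes. Gene counts do not separate the full receptor from the shorter receptor form and phosphacan, which come from the same gene. Cspg5 (neuroglycan C, a membrane proteoglycan with an EGF-like domain) had the smallest range of the 10. It stood at 1397 CPM in T14 and 1375 in T10, with 1447 in T8 and 1602 in TUN, 1.17 times between the lowest and the highest library. Cspg4, a marker of oligodendrocyte precursors and of pericytes, stood at 569, 799, 952 and 946 CPM in that order (101 ± 22.3 RPKM). T14 was its lowest library and T8 and TUN differed little. Pericyte and fibroblast markers, the other known source of Cspg4 RNA, summed to 427 CPM in T14 and 468 in T10, with 391 in T8 and 433 in TUN, with 8 of 8 detected, and their part in the Cspg4 level was not tested.

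The tenascins differed from each other in both level and pattern. Tnr (tenascin-R, a nervous system tenascin made by oligodendrocyte lineage cells and some neurons) stood at 904 CPM in T14 and 1338 in T10, with 734 in T8 and 905 in TUN. It was highest in T10 and averaged 75.4 ± 20.1 RPKM (SD, n = 4). Tnc (tenascin-C, a tenascin of developing brain, stem cell niches and wounds) stood at 57.1, 62.0, 177 and 81.5 CPM in the same order, 12.1 ± 7.21 RPKM on average. T8 was its highest library, where Tnr was at its lowest. The summed neural stem cell genes were also highest in T8, at 4664 CPM, followed by 3414 in TUN, 2079 in T14 and 1973 in T10. Vim (2521 CPM) and Fabp7 (1141 CPM) made up most of the T8 sum. Of the 6 genes 4 were highest in T8, 1 in TUN and 1 in T14. Prom1 of that list was lowest in T8, at 5.57 CPM, and highest in T14, at 16.8 CPM. The summed oligodendrocyte precursor markers were highest in T8 too, at 11715 CPM, followed by 9405 in TUN, 7787 in T10 and 6808 in T14. That is the order of Tnc over all 4 tumours, which the stem cell sum did not share between T14 and T10. Of the 10 precursor markers 6 were highest in T8, 3 in T10 and 1 in TUN. The part of either kind of cell in the Tnc value was not tested.

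Hapln1, the link protein first known from cartilage and present in perineuronal nets, was the lowest of the 10. It had 164 counts in T14 and 372 in T10, with 25 in T8 and 85 in TUN, which are 7.28, 15.1, 1.05 and 3.80 CPM. The 25 counts of T8 have an exact 95% Poisson interval of 16.2 to 36.9 counts, which covers counting error only. Highest and lowest library differed 14.5-fold, the widest range of the 10 genes. T14 and T10, with the higher Hapln1 values, were also the libraries with the higher neuron, astrocyte and mature oligodendrocyte marker sums. Hapln1 was higher in T10 than in T14, as was the mature oligodendrocyte sum, while the neuron and astrocyte sums were higher in T14. Between the other libraries Hapln1 was higher in TUN than in T8, while the neuron, astrocyte and mature oligodendrocyte sums were all higher in T8. The part of these cells in Hapln1 was not tested.

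**Figure D1:**
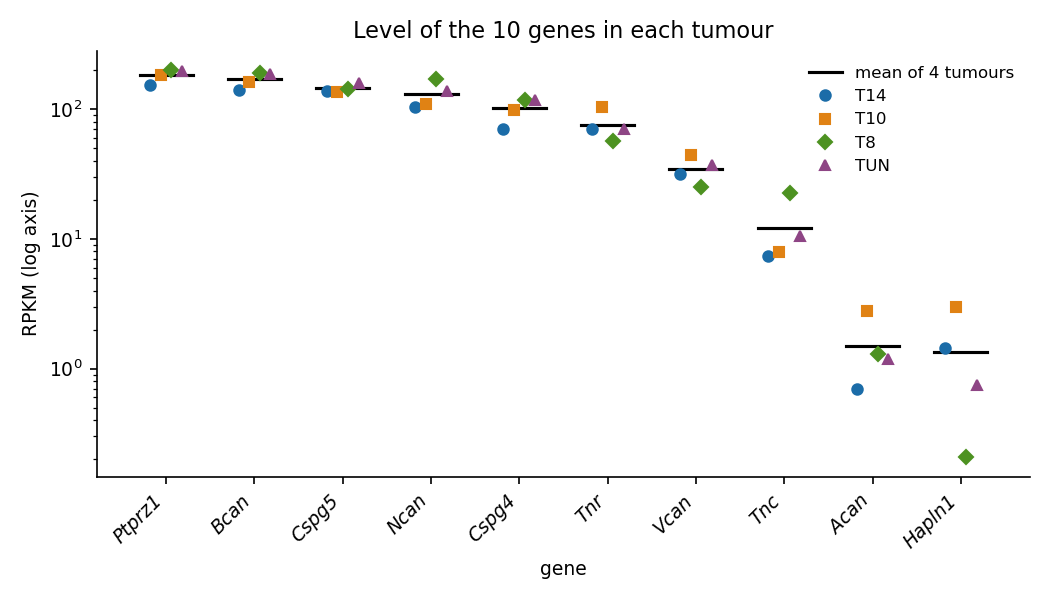
RPKM on a log axis for each of the 10 genes, ordered by mean, with a symbol for each tumour and a bar for the mean of the 4. Ptprz1 to Tnr lie between 57.0 and 200 RPKM in every tumour, while Acan and Hapln1 stay below 3 RPKM.

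By mean RPKM the order was Ptprz1, Bcan, Cspg5, Ncan, Cspg4, Tnr, Vcan, Tnc, Acan and Hapln1. From Ptprz1 down to Tnr, neighbouring genes had overlapping ranges over tumours. Within tumours, Ptprz1 exceeded Bcan, Bcan exceeded Cspg5 and Ncan exceeded Cspg4 in 4 of 4, while Cspg5 exceeded Ncan and Cspg4 exceeded Tnr in 3 of 4. The ranges of Tnr and Vcan, of Vcan and Tnc, and of Tnc and Acan did not overlap. Acan exceeded Hapln1 in 2 of 4 tumours. The length used matters for the upper values: with the longest coding transcript of GENCODE vM21 in place of the merged exons, Ptprz1 stood at 324 RPKM, since its merged exons (14245 bases) are 1.77 times as long as that transcript (8068 bases). The order of the 10 genes was the same with either length. Together they took 0.669% of all counts in T14 and 0.838% in T10, with 0.843% in T8 and 0.895% in TUN.

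Link protein genes lie beside lectican genes, 1 beside each, with 0 other genes wholly between them in any pair. Hapln1 and Vcan are 43479 bases apart on chromosome 13, Hapln2 and Bcan 21519 bases on chromosome 3, Hapln4 and Ncan 2222 bases on chromosome 8, and Hapln3 and Acan 2 bases on chromosome 7. The neighbours did not share a level. Mean RPKM was 34.6 for Vcan and 1.35 for Hapln1, 171 for Bcan and 4.98 for Hapln2, and 130 for Ncan and 19.5 for Hapln4. Only the pair on chromosome 7 differed in direction, with Acan at 1.49 and Hapln3 at 2.99 RPKM, and Acan exceeded Hapln3 in T10 alone. The strand setting of the counting is not stated, and reads at the abutting ends of Acan and Hapln3 could be assigned to the neighbour.

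**Figure D2:**
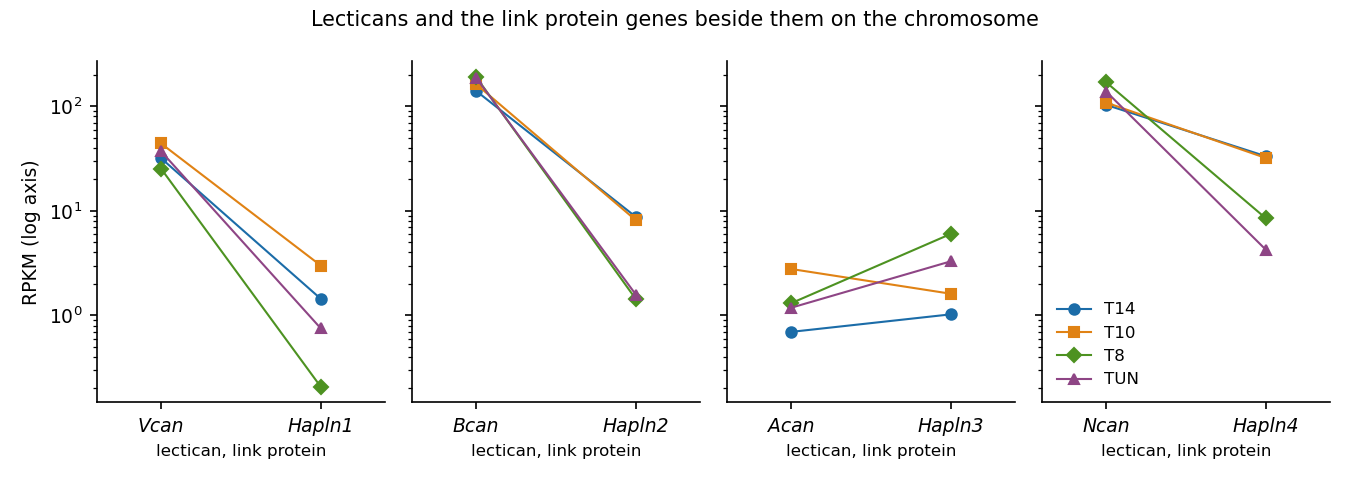
RPKM on a log axis of each lectican gene (left) and the link protein gene beside it (right), with 1 line per tumour. Vcan, Bcan and Ncan lie above their neighbour in every tumour, and the lines of T14 and T10 end highest for Hapln2 and Hapln4.

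Lecticans and their neighbours also moved differently between tumours. The ratio of Bcan to Hapln2 RPKM was 16.04 in T14 and 20.0 in T10, with 133 in T8 and 119 in TUN. For Ncan and Hapln4 it was 3.10, 3.39, 20.0 and 32.6, and for Vcan and Hapln1 22.1, 14.7, 122 and 49.4. In each of these 3 pairs the 2 lowest ratios were those of T14 and T10. For Acan and Hapln3 it was 0.679, 1.73, 0.217 and 0.360, with the 2 highest ratios in T14 and T10. Bcan and Ncan were themselves lower in T14 and T10, but their full ranges were only 1.36-fold and 1.65-fold, against 6.12-fold for Hapln2 and 7.84-fold for Hapln4. Hapln2 is known from the nodes of Ranvier of myelinated axons, and Hapln4 from perineuronal nets and inhibitory synapses. Hapln2 stood at 20.8, 19.3, 3.39 and 3.75 CPM and Hapln4 at 119, 115, 30.3 and 15.2 CPM, in the order T14, T10, T8 and TUN. Markers of parvalbumin neurons, the main bearers of perineuronal nets, summed to 1366, 831, 148 and 81.0 CPM in that order, 5 of 5 detected. The sums of all neuron markers (3262, 2421, 265 and 164 CPM) and of mature oligodendrocyte markers (4061, 5386, 1207 and 1159 CPM) were also higher in T14 and T10. The astrocyte sum was so too. Acan, a lectican of perineuronal nets, was lowest in T14, where the parvalbumin sum was highest. The part of any of these cells in the ratios was not tested.

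**Figure D3:**
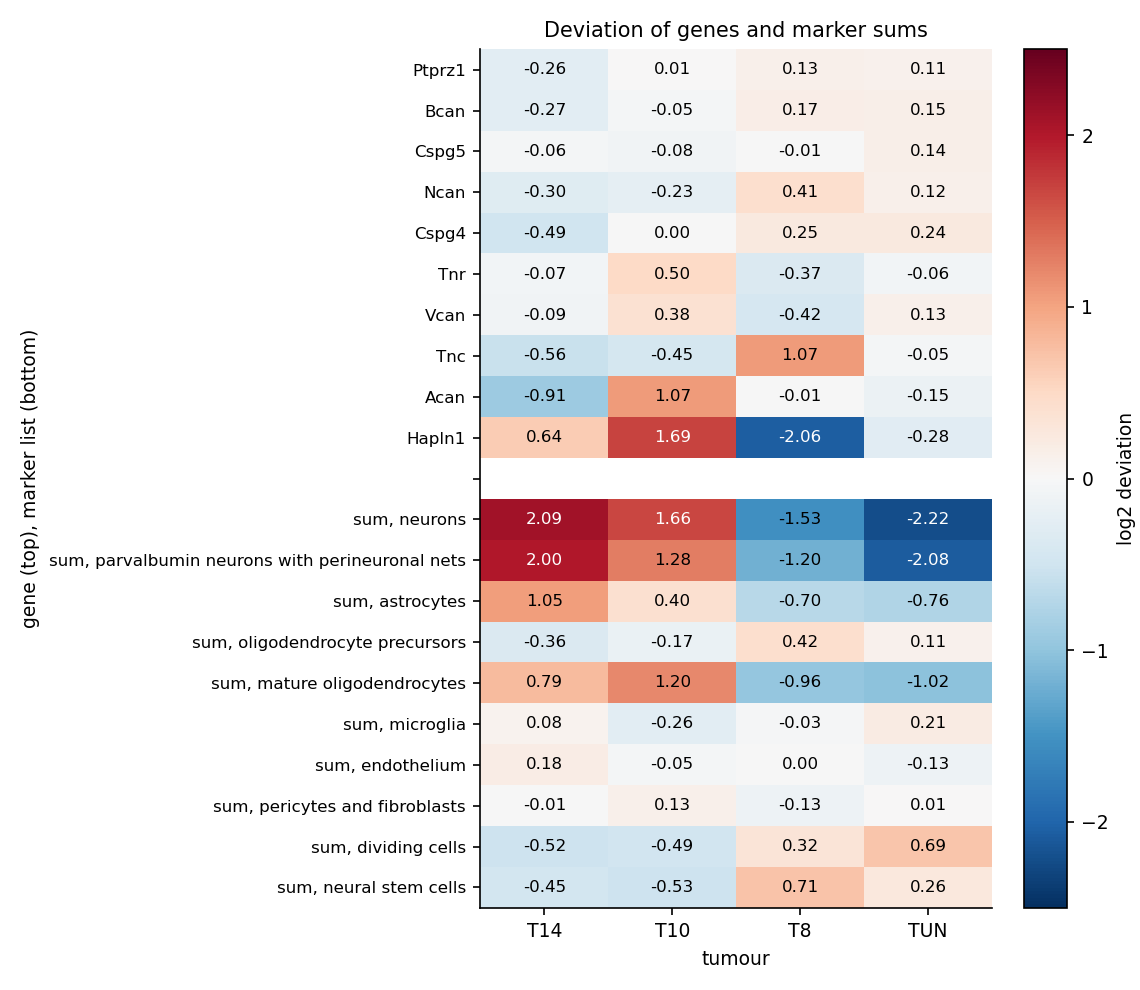
Log2 deviation from the 4-tumour mean of each of the 10 genes (upper rows) and of the summed CPM of each marker list (lower rows), with tumours as columns and values printed in the cells. Ptprz1, Bcan, Cspg5, Ncan, Cspg4, Tnr and Vcan stay within 0.50 of their mean, and neuron marker sums span 2.09 to -2.22.

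Whether a gene varied between tumours more than genes of like abundance was asked with an edgeR goodness of fit over all 14266 genes that passed the count filter. It called 619 genes, 4.34% of those tested (adjusted p under 0.05, Benjamini-Hochberg). Of the 10 matrix genes, all passed the filter and 0 were called, against 2 with an unadjusted p under 0.05, Hapln1 and Tnc. Of all genes tested, 1196 (8.38%) had an unadjusted p under 0.05. With 10 genes, a share of 0 is close to the background share. Hapln1 had an edgeR adjusted p of 0.0715 and Tnc one of 0.434, and for the other 8 it was above 0.99. As dispersion outliers in DESeq2, 0.547% of all genes and 0 of the 10 were marked. Without TUN, Hapln1 was called in the same edgeR test (adjusted p = 0.0438), and with a single dispersion for all genes it was called as well (adjusted p = 0.00329), so the missing call does not show that it was stable. Over all alternatives the edgeR adjusted p of Hapln1 ran between 0.00329 and 0.932. The background shares of those fits were 2.95% without TUN and 5.06% with the single dispersion. No member was called in the edgeR fits with DESeq2's size factors (4.33% of all genes called), without the filter (2.75%) or with a filter on mean CPM (4.9%), or without T14 (2.99%), T10 (3.22%) or T8 (3.12%). The median range of the 10, highest over lowest CPM, was 1.71, and that of all genes tested was 1.57. Of the 10, 7 had a range above 1.57.

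**Figure D4:**
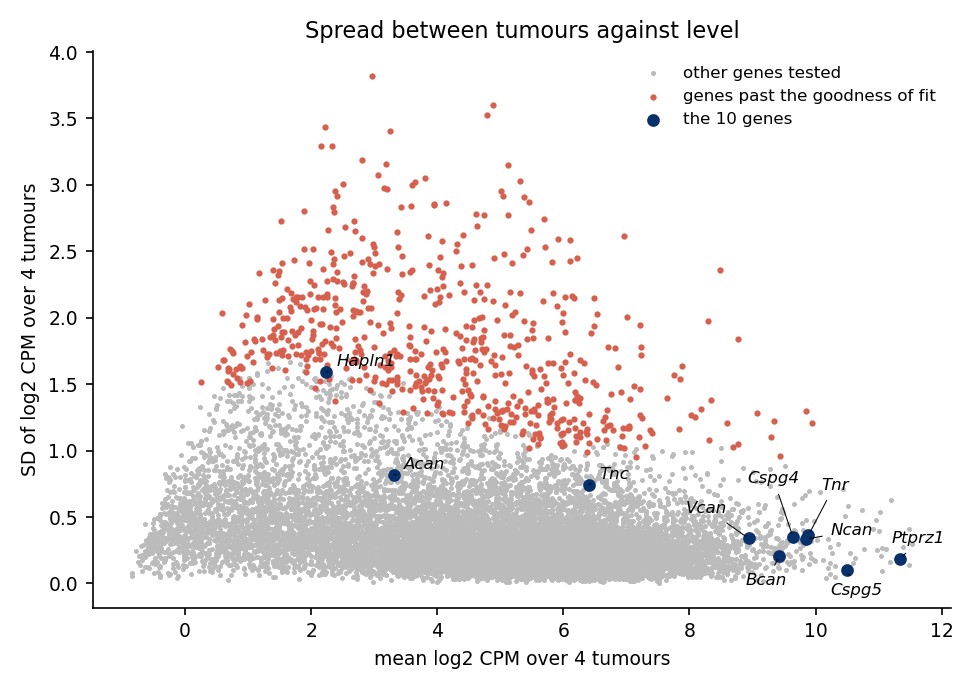
SD of log2 CPM against mean log2 CPM over the 4 tumours for all 14266 genes tested, with genes past the goodness of fit in red and the 10 genes in dark blue. Hapln1 (SD 1.59) lies at the edge of the red points, Acan (0.82) and Tnc (0.74) among the other genes, and Cspg5 has the smallest SD of the 10 (0.10).

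Log2 ratios of RPKM (with 0.1 added to each value) were taken within each tumour for 8 pairs. Bcan exceeded Ncan by 0.41 ± 0.17 and Vcan by 2.32 ± 0.44, and Ncan exceeded Acan by 6.48 ± 0.84 (SD, n = 4). Without the length the first of these turned to -0.41, because the Ncan transcript is longer, so the direction between Bcan and Ncan holds per length only. Tnc lay below Tnr, at -2.75 ± 1.03, namely -3.24 in T14 and -3.69 in T10, with -1.32 in T8 and -2.73 in TUN. Cspg4 lay below Cspg5 at -0.54 ± 0.30. Ptprz1 exceeded Bcan by 0.11 ± 0.05, which became 0.56 with the longest coding transcripts as lengths. Hapln1 lay below Hapln4 at -3.74 ± 1.11. Each ratio had 1 sign in 4 of 4 tumours, for which the two-sided exact sign-flip test gives p = 0.125 (adjusted p = 0.125 over the 8), the smallest that 4 tumours allow, and the design cannot reach 0.05.

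The enzymes that build chondroitin chains were present throughout. All 12 genes of chain synthesis were detected (CPM 1 or more in all 4 tumours). Of the 12, 0 were called by the edgeR goodness of fit (4.34% of all genes tested), by DESeq2 (0.547%) or at an unadjusted p under 0.05 (8.38%). With a list this short, 0 is close to these shares. Xylt1, which starts the chain by adding xylose to the core protein, led them at 534 CPM in T14 and 770 in T10, with 888 in T8 and 693 in TUN (74.8 ± 15.4 RPKM, SD, n = 4). B3gat3, which completes the linker, stood at 39.0 ± 6.91 RPKM and Chpf, a chain polymerising factor, at 38.3 ± 4.69. T14 was the lowest library for Xylt1, as for Ptprz1, Bcan, Ncan, Cspg4, Tnc and Acan.

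Of the 10 sulfotransferase and epimerase genes, 9 were detected. By edgeR (4.34% of all genes tested), by DESeq2 (0.547%) or at an unadjusted p under 0.05 (8.38%), 0 were called. Chst11, which sulphates chondroitin at the 4 position, stood far above the rest at 128 ± 26.7 RPKM, in the range of Ncan. It reached 548 CPM in T14 and 693 in T10, with 905 in T8 and 683 in TUN. Ust, a uronyl 2-sulfotransferase, stood at 18.6 ± 4.39 RPKM and Chst7, a 6-sulfotransferase, at 14.1 ± 5.82. The exception was Chst13, named after its values were seen, with 1 count in T10 and 0 in the other libraries, where 0 allows up to 3 counts or 0.134 CPM.

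Proteases that cut lecticans were present at low to middling levels. All 7 Adamts genes of the list were detected. By edgeR (4.34% of all genes tested), by DESeq2 (0.547%) or at an unadjusted p under 0.05 (8.38%), 0 were called. Adamts1 led at 21.9 ± 4.22 RPKM, followed by Adamts4 (3.88 ± 1.24) and Adamts9 (3.42 ± 1.67). Adamts9 stood at 21.7 CPM in T14 and 40.3 in T10, with 77.3 in T8 and 66.6 in TUN, lowest in T14 and highest in T8.

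Among genes for ligands and receptors, the growth factor gene Ptn was the most abundant. Ptn encodes pleiotrophin, which binds the chondroitin chains of Ptprz1 and inactivates the phosphatase. It stood at 977 CPM in T14 and 969 in T10, with 1572 in T8 and 1274 in TUN (349 ± 83.6 RPKM, SD, n = 4), above Ptprz1 itself per kilobase of merged exons. Its relative midkine, Mdk, was highest in T14 and lowest in T8, where Ptn was highest, at 21.4, 8.75, 1.22 and 2.68 CPM, and was called by edgeR (adjusted p = 0.0073). The log2 ratio of Ptn to Mdk was 4.13, 5.39, 8.81 and 7.45 in the same order. Cntn1, the membrane partner of Ptprz1 and Tnr, stood at 227 ± 14.4 RPKM, and the syndecan gene Sdc3 at 193 ± 5.27 RPKM, 1.13 and 1.07 times between lowest and highest library. Of the 15 genes on this list 14 were detected and 3 called by edgeR, which called 4.34% of all genes tested. The other 2 were Rtn4r (adjusted p = 0.00203 in edgeR) and Rtn4rl1 (adjusted p = 0.0070 in edgeR), which encode Nogo receptors. Rtn4r, the gene not detected in all tumours, stood at 18.7, 4.72, 0.880 and 1.56 CPM and Rtn4rl1 at 31.4, 8.67, 2.77 and 3.57 CPM. All 3 were highest in T14, where the summed neuron markers and the summed astrocyte markers were both highest. In each of those marker lists 8 of 10 genes were highest in T14 and 2 in T10. Without T14 none of the 15 genes was called by edgeR. DESeq2 marked 0 of the 15 and 0.547% of all genes. The part of neurons and astrocytes in these 3 values was not tested. Ptprs, a chondroitin receptor of axons, ranged only from 334 to 362 CPM.

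Of 12 genes for other link proteins, other tenascins and hyaluronan, 8 were detected and 1, Hapln4, was called (edgeR adjusted p = 0.000366). The list had 9 tested genes, and edgeR called 4.34% of all genes tested. DESeq2 marked 0 genes of the list and 0.547% of all genes. Without TUN 0 genes of the list were called by edgeR, and without T14 2 were. After Hapln4 the highest were the hyaluronidase genes Hyal2 (8.49 ± 2.43 RPKM) and Tmem2 (5.70 ± 1.33). The 4 below the limit in some tumour were the synthase genes Has1 and Has3 and the tenascin genes Tnn and Tnxb, named after their values were seen. Tnxb reached 4.15 CPM in T10 and Tnn at most 0.448 CPM, so Tnr and Tnc carried nearly all tenascin counts.

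Heparan sulphate and small leucine-rich proteoglycans offer a comparison with other matrix carriers. Of 18 genes 16 were detected and 3 called by edgeR, which called 4.34% of all genes tested. The 3 were Spock1 (edgeR adjusted p = 9.76e-15), Spock3 (2.14e-07) and Fmod (3.83e-05). DESeq2 marked 1 gene of the list and 0.547% of all genes. The testican gene Spock1 stood at 161 CPM in T14 and 104 in T10, with 5.36 in T8 and 3.93 in TUN, and Spock3 at 65.8, 60.2, 6.91 and 2.90 CPM. Both followed the order of the summed neuron markers, which the summed astrocyte markers shared. The part of these cells was not tested. Fmod, a leucine-rich proteoglycan gene, stood at 16.6, 16.1, 1.01 and 0.536 CPM. By level the list was led by Spock2 (107 ± 54.9 RPKM), Agrn (39.7 ± 7.99) and Sdc4 (27.7 ± 11.5). The median range of its 18 tested genes was 2.44, beside 1.71 for the 10 matrix genes and 1.46 for the 12 chain synthesis genes. These medians describe the lists and were not tested against each other.

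**Figure D5:**
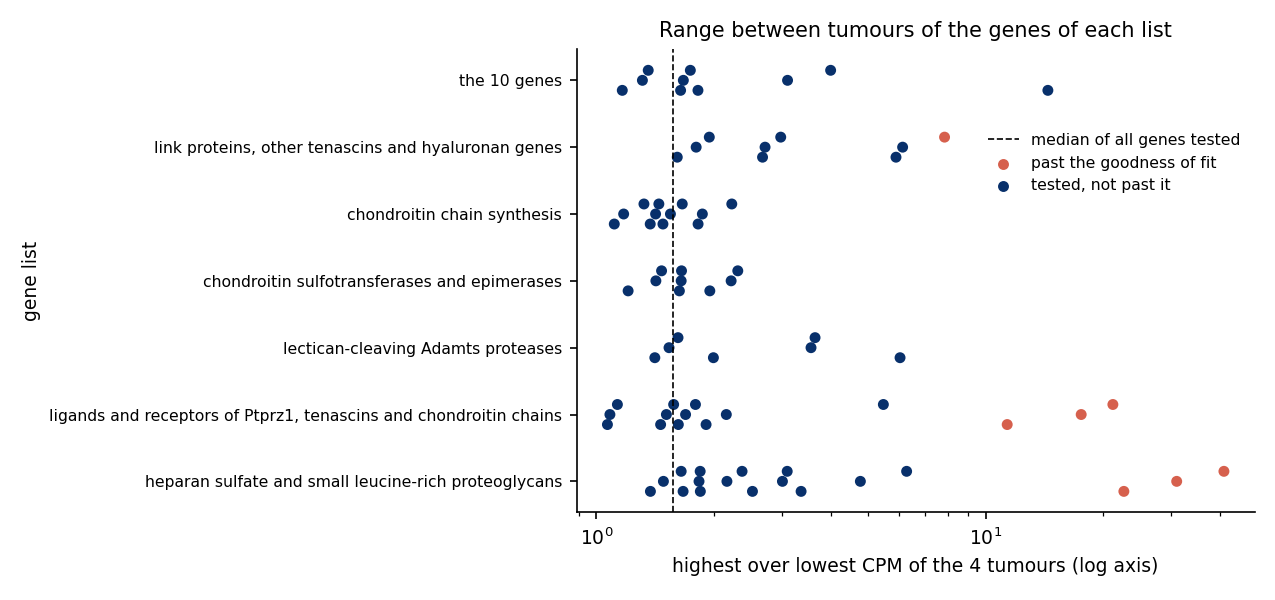
Highest over lowest CPM of the 4 tumours on a log axis for each tested gene, by list, with genes past the goodness of fit in red and the median of all tested genes (1.57) as a dashed line. Chain synthesis genes end at 2.23, and the widest range plotted is that of Spock1 at 41.0.

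The genes whose pattern over the 4 tumours was most like each member were taken from 10696 genes at mean CPM 10 or more, by the root mean square difference of centred log2 CPM. With 4 points such likeness is a description only. For Bcan they were Ptprk (0.0057), Heatr3 (0.0060) and Metap2 (0.014). For Hapln1 they were Trank1 (0.16), Begain (0.21) and Tmem132b (0.22). Begain, a gene of the postsynaptic density, stood at 17.1 CPM in T14 and 32.1 in T10, with 2.89 in T8 and 6.83 in TUN. For Tnc they were Mfge8 (0.062), which encodes a secreted phagocytosis factor and stood at 91.0, 93.3, 271 and 137 CPM, the transcription factor gene Otx1 (0.10) and the pseudogene Tpt1-ps3 (0.11). Acan was matched most closely by Filip1 (0.19), Nav1 (0.23) and Shc4 (0.25), each highest in T10. The nearest gene was Rap2c (0.017) for Ncan, Armc9 (0.032) for Vcan, Cdc14a (0.018) for Cspg4, Igbp1 (0.0057) for Cspg5, Rhbdd1 (0.015) for Ptprz1 and Pde3a (0.015) for Tnr. None of these nearest genes was another of the 10, of which Hapln1, at a mean of 6.82 CPM, lay below the limit of the search. With 10696 genes to choose from, this does not show that the members moved apart from each other.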

How the data were processed

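PolyA RNA of 4 mouse tumours was sequenced on a HiSeq2500 after TruSeq preparation, per the labels' protocols. The authors deposited whole-number read counts per gene. STAR, featureCounts and mm10 are named in the submitters' processing notes, and versions, strand setting and the treatment of multiply mapped reads are not stated in the labels. Gene rows follow GENCODE vM8, named with the table, and its merged exon length was used for RPKM. The table holds no measurement column left aside. Symbols matched 46451 of 46946 identifiers.

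The columns T14, T10, T8 and TUN match no sample title, and each was taken as a PDGFB K27M tumour without a replicate number. Whether they are separate animals is not stated, so p-values measure the spread between these samples, which may be technical. TMM factors and the intercept-only goodness of fit (trended dispersion, chi-square with 3 degrees of freedom, genes kept by filterByExpr) came from edgeR 4.0.16 in R 4.3.3, with DESeq2 1.42.0 as an alternative. The step was also run on simulated data with a single dispersion for all genes, unlike the trended dispersion of the main fit, so nothing is concluded from it here. The members, gene lists and named genes were chosen with earlier results of these data known. Named genes were the members, the genes of the 8 ratios, and the 3 highest by RPKM and all called genes of each pathway list. The 3 nearest in pattern per member and the 2 highest markers per cell type could also be named. Outside this rule the text names Ptprs, Sox2, Prom1, Hapln2, Hapln3, Chst13, Has1, Has3, Tnn and Tnxb, and genes sharing exon bases with a member. Alternatives were other scalings, filters, dispersions, pseudocounts and lengths, and leaving out each tumour.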

Additional observations from a re-analysis of the deposited data

Results flagged for a closer look

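Among 74 sets of 4 tumour values checked, 2 had a tumour far from the other 3 by Dixon's ratio (95% level), and chance alone marks about 1 set in 20. The log2 ratio of Ncan to Acan was 7.02 in T14 and 5.24 in T10, with 6.92 in T8 and 6.75 in TUN, with T10 apart (ratio 0.850). In T10 it was Acan that was high, at 20.8 CPM, while Ncan stood at 782 CPM, within its range over the other tumours. The astrocyte transporter gene Slc1a3 stood at 1512 CPM in T14 and 767 in T10, with 797 in T8 and 767 in TUN, with T14 apart (ratio 0.959).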

How the results depend on the processing

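With the longest coding transcript as length, a setting added after seeing the data, mean RPKM became 221 for Bcan, 185 for Cspg5 and 324 for Ptprz1, and the other 7 members moved by less than their SD. Without length, the log2 ratio of Bcan to Ncan reversed to -0.41. In the goodness of fit 1 member (Hapln1) was called with the common dispersion, and leaving out a tumour gave 0 to 1 members. DESeq2 marked 78 genes in place of 619. Link protein and hyaluronan genes: 4 were detected at CPM 5, 2 were called with the common dispersion, 0 in DESeq2, and 0 to 2 when a tumour was left out (0 without TUN, 2 without T14). Ligand and receptor genes: 0 were called in DESeq2, and 0 to 3 when a tumour was left out (0 without T14). Heparan sulphate genes: 1 was called in DESeq2. The cause was not tested. Of all alternatives to these levels, ratios and counts, 225 stayed within the limit set for their kind, and 15 did not. The limit was a move of less than the SD for levels and an unchanged sign, of any size, for ratios. For counts it was within 1.5 times, with 0 staying 0. Some of the 225 still moved in size: mean Hapln1 was 4.04 CPM without T10, against 6.82, and the log2 ratio of Ptprz1 to Bcan was 1.92 without length and 0.56 with the other length, against 0.11. No paired analysis was possible because the labels give 1 group and the columns carry no replicate number. Depth limits Hapln1 and Acan most, with 25 counts of Hapln1 in T8 the smallest value of any member.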
